A study of Mus musculus with 15 samples.

Results

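The cyclins and cyclin-dependent kinases (CDKs) described here are 10 genes of the 55359 in the RNA-seq matrix: the D-type cyclins Ccnd1, Ccnd2 and Ccnd3, the E-type cyclins Ccne1 and Ccne2, cyclin A2 (Ccna2), cyclin B1 (Ccnb1), and the kinases Cdk2, Cdk4 and Cdk6. They were taken by gene name, not by value, each name matched 1 row, and all 10 passed the filter on low values in every comparison. The study sequenced poly-A RNA from 15 mouse samples in 5 groups of 3 to compare models of high-grade neuroendocrine lung carcinoma with normal lung. The values are read counts divided by a size factor per sample, called normalized counts below.

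46LCNEC_cell was an adherent line from a large cell neuroendocrine carcinoma (LCNEC) that arose in QKO mice after adenovirus Ad-CMVcre was given into the trachea, and its 3 samples came from separate dishes. 57SCLC_cell was a line growing as floating aggregates from a small cell lung carcinoma (SCLC) that arose in QKO mice after Ad-K5cre, in which the keratin 5 promoter drives Cre, and its 3 samples were separate flasks at passage 11. QKO mice carry floxed alleles that include Rb1, which encodes the retinoblastoma protein, and the tumor suppressor Trp53, both lost where Cre has acted. They also carry a null allele of the retinoblastoma family member Rbl1, which does not depend on Cre. 46LCNEC_allo and 57SCLC_allo were tumors grown under the skin of immunocompetent QKO mice from the same lines. Lung was normal lung of littermates of the recipients. For the control lungs it genotyped, the study gives floxed Rb1 and Trp53 with null Rbl1, without stating whether the sequenced lungs were among them. The age of these mice was not given in the sources used here. Each tumor type stands on 1 line, so that p-values between cultures measure only the spread between dishes or flasks, and the allografts hold cells of the host besides those of the line. In such bulk samples, fewer cells of a type and less RNA per cell cannot be told apart.

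D-type cyclins bind Cdk4 and Cdk6, and these complexes phosphorylate the retinoblastoma protein, which releases E2F transcription factors. Cyclin E with Cdk2 then carries cells into DNA replication, cyclin A2 acts with Cdk2 in S phase and cyclin B1 with Cdk1 in mitosis, and their genes are transcribed mainly in dividing cells. Loss of Rb1 is a hallmark of SCLC, and cells without the retinoblastoma protein generally do not need Cdk4 and Cdk6 to enter the cycle. Most cells of adult lung do not divide.

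Libraries held between 9480244 (57SCLC_allo sample 275) and 44876572 counted reads (57SCLC_cell sample C). Sample C of 57SCLC_cell stood apart from A and B: its counts differed from theirs with a chi-square per degree of freedom of 144 and 127, against 2.80 between A and B. Normalized counts of Rb1 were 247 to 329 in Lung, 66.6 to 99.9 in 46LCNEC_cell and 183 to 290 in 46LCNEC_allo, and for 57SCLC they were 229 to 777 in the cells and 244 to 469 in the tumors. Rbl1 was counted at 750 to 872 in Lung and at 1172 or more in each of the other samples. Trp53 lay between 923 and 1548 over all samples. These counts cover whole genes and do not check the deleted exons. Of the neuroendocrine markers, Chga, Syp, Insm1, Ncam1 and Calca rose in 57SCLC_cell and 57SCLC_allo against Lung. In 46LCNEC_cell and 46LCNEC_allo, Ncam1 alone rose and Syp and Insm1 fell. Calca fell too in 46LCNEC_cell (log2 fold change -2.28), where Chga did not pass the filter on low values. These are RNA counts, and the study reports staining for chromogranin A protein in LCNEC tumors of immunocompetent mice. Sstr2 was listed at 0 in all 15 samples, which is not taken as absence of the RNA. The study reports cells positive for SSTR2 protein by immunofluorescence in its lines.

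The plot of the 10 members by sample shows 2 kinds of pattern. The E-type cyclins, Ccna2, Ccnb1, Cdk2 and Cdk4 were higher in each of the 12 cell and allograft samples than in any Lung sample. Ccnd1, Ccnd3 and Cdk6 were far lower in the SCLC samples than in the LCNEC samples and in Lung, and Ccnd2 was lower than in Lung in all tumor groups.

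**Figure D1:**
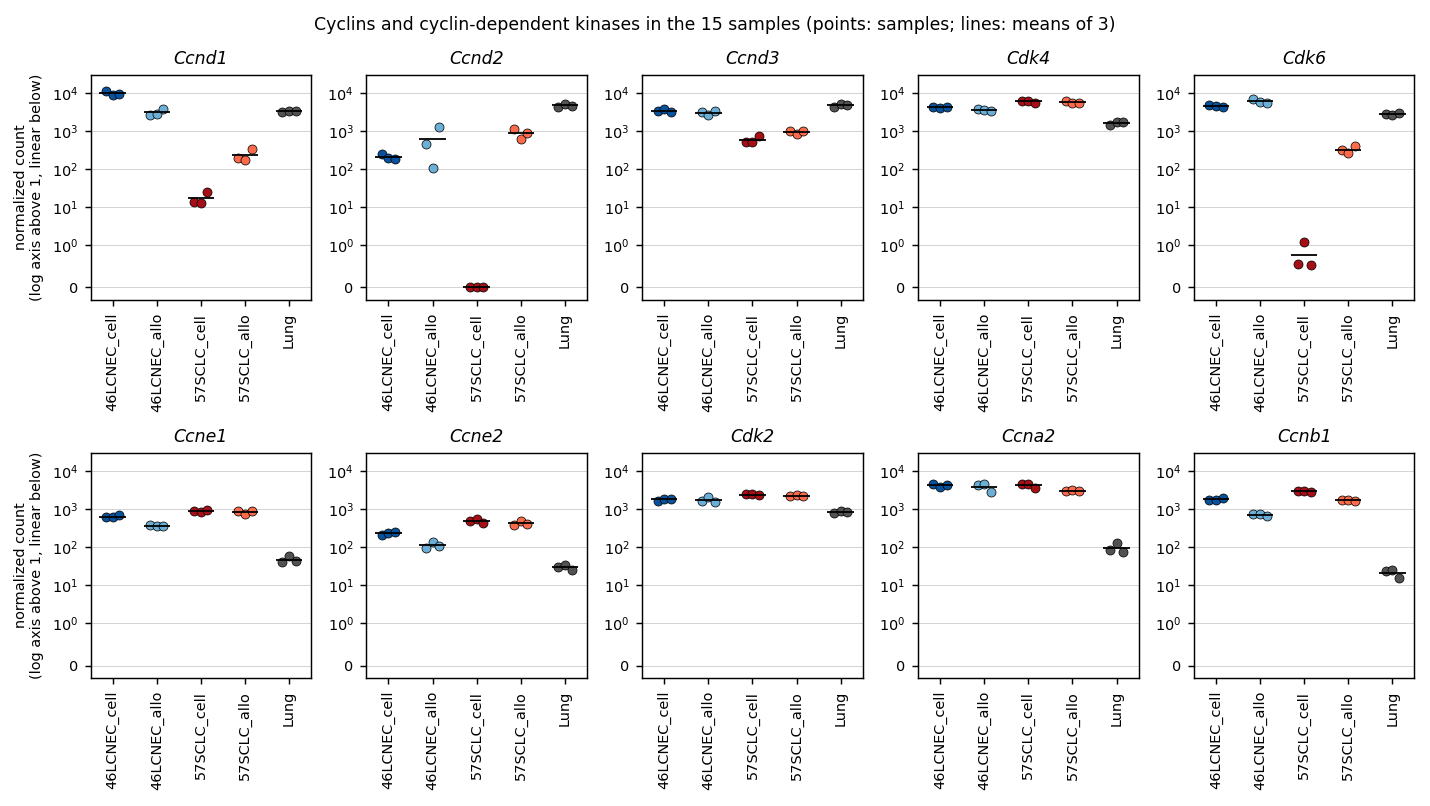
Normalized counts of the 10 members in each sample (vertical axis, logarithmic above 1 and linear below), with 1 point per sample and a line at the mean of 3. Ccnd2 lies at 0 and Cdk6 at 0.521 to 1.206 in 57SCLC_cell, while Ccna2 and Ccnb1 lie at 126 or less in Lung and at 642 or more elsewhere.

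Ccnd1 (ENSMUSG00000070348, GRCm39 chr7:144483668-144493662, minus strand) was the most variable D-type cyclin with reads in every library. Lung had 3200, 3244 and 3373 normalized counts, 46LCNEC_cell 11056, 8517 and 9046, and 46LCNEC_allo 2629, 2801 and 3737. 57SCLC_cell had 13.1, 12.7 and 24.5, and 57SCLC_allo 194, 167 and 342. The order of the groups was 46LCNEC_cell, Lung, 46LCNEC_allo, 57SCLC_allo and 57SCLC_cell, and of the neighbours in it only Lung and 46LCNEC_allo overlapped. Against Lung, Ccnd1 rose in 46LCNEC_cell by 1.53 ± 0.10 (log2 fold change on the log2(normalized count + 1) scale ± SE, n = 3 against 3, limma, adjusted p = 5.63e-07). In 57SCLC_cell it fell by 7.59 ± 0.24 (adjusted p = 7.44e-08), and in 57SCLC_allo it fell by 3.87 ± 0.24 (adjusted p = 3.20e-06). The difference between 46LCNEC_allo and Lung was -0.12 ± 0.14 (adjusted p = 0.509).

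Ccnd2 (ENSMUSG00000000184, chr6:127102125-127129156, minus strand) was highest in Lung, at 4279, 4973 and 4604. It was counted at 251, 193 and 182 in 46LCNEC_cell and at 449, 107 and 1273 in samples 312, 319 and 321 of 46LCNEC_allo. No read of Ccnd2 was counted in the 3 libraries of 57SCLC_cell, but 1092, 607 and 866 normalized counts were found in 57SCLC_allo. All groups lay below Lung without overlap. Ccnd2 fell by 4.47 ± 0.13 in 46LCNEC_cell (adjusted p = 3.44e-09), and it fell by 2.47 ± 0.19 in 57SCLC_allo (adjusted p = 1.18e-05). With a floor of 3 reads per library, Ccnd2 was at least 2766-fold lower in 57SCLC_cell than in Lung; the floor covers counting error only. In 46LCNEC_allo the difference was -3.54 ± 0.81 (adjusted p = 0.00878) and the 3 tumors spread from 107 to 1273. This call was lost when sample 312 or any Lung sample was left out (adjusted p between 0.0257 and 0.0345) and with edgeR (adjusted p = 0.0177).

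Ccnd3 (ENSMUSG00000034165, chr17:47815767-47910624, plus strand) varied least among the D-type cyclins. Lung had 4293, 4901 and 4728 normalized counts, 46LCNEC_cell 3370, 3694 and 3154, and 46LCNEC_allo 3101, 2601 and 3215. The SCLC samples were lower, with 516, 508 and 723 in 57SCLC_cell and 1005, 800 and 1016 in 57SCLC_allo. Ccnd3 fell against Lung by 3.01 ± 0.14 in 57SCLC_cell (adjusted p = 5.37e-07) and by 2.31 ± 0.11 in 57SCLC_allo (adjusted p = 8.31e-07). In the LCNEC groups the differences of -0.45 ± 0.08 and -0.65 ± 0.11 were under the 2-fold limit set for a call.

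Ccnd3 has a near-identical copy in the genome. The processed pseudogene Ccnd3-ps (chr4:139072611-139073491, minus strand) matched Ccnd3 transcripts at 96.3% over 881 bases, and between 27.4% and 42.0% of the summed normalized counts of gene and copy stood on the copy. A stretch of 150 bases, the length of 1 read, from the middle of the coding sequence (bases 381 to 530, GRCm39, GENCODE) shows how little separates them. The 6 bases that differ are in capitals:
Ccnd3: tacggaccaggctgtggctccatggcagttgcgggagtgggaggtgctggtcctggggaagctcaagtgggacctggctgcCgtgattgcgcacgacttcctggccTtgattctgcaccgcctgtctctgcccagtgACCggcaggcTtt
Ccnd3-ps: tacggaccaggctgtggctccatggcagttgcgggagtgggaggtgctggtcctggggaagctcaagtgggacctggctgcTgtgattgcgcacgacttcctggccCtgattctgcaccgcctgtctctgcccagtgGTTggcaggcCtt
Adding the counts of Ccnd3-ps and Ccnb1-ps to Ccnd3 and Ccnb1, an alternative chosen after seeing the data, changed no call of a member.

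Cdk4 (ENSMUSG00000006728, chr10:126895180-126903789, plus strand), the partner of D-type cyclins in most tissues, rose in each tumor group. The normalized counts were 1386, 1712 and 1692 in Lung, 4092, 4029 and 4320 in 46LCNEC_cell, and 3645, 3500 and 3382 in 46LCNEC_allo. 57SCLC_cell had 6081, 6195 and 5384, and 57SCLC_allo 6063, 5340 and 5276. No sample of these groups overlapped with Lung. The log2 fold changes were 1.38 ± 0.09 in the cells and 1.14 ± 0.11 in the tumors of 46LCNEC, and 1.89 ± 0.11 and 1.80 ± 0.10 in those of 57SCLC, with adjusted p between 7.05e-07 and 0.000203. The 57SCLC groups overlapped with each other and lay above both LCNEC groups.

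The 250 bases before the start of Cdk4 (chr10:127063285-127063534, plus strand, RefSeq, GRCm38.p6) held the E-box CACGTG 4 times. This palindrome is a binding sequence of the Myc family, and it was found in 6.02% of the 32851 windows of this length in the table. It is in capitals here:
Cdk4: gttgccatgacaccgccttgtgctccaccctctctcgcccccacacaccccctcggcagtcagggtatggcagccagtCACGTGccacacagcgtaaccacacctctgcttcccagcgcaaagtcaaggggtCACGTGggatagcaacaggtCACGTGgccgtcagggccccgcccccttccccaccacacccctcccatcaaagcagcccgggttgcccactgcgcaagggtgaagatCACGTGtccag

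Cdk6 (ENSMUSG00000040274, chr5:3391485-3581008, plus strand), the other kinase of D-type cyclins, went in opposite directions in the lines. It had 4702, 4422 and 4206 normalized counts in 46LCNEC_cell, 6897, 5869 and 5283 in 46LCNEC_allo and 2765, 2642 and 2880 in Lung. In 57SCLC_cell only 1, 2 and 1 reads were counted, which is 0.545, 1.206 and 0.521 normalized counts, and 57SCLC_allo had 311, 255 and 389. The 5 groups did not overlap for this gene. Cdk6 rose in 46LCNEC_allo by 1.11 ± 0.12 (adjusted p = 0.000304), while in 46LCNEC_cell the difference of 0.69 ± 0.07 was under the 2-fold limit. In 57SCLC_allo it fell by 3.13 ± 0.15 (adjusted p = 8.17e-07). In 57SCLC_cell the ratio of Lung to these cells was 3736, with an exact 95% interval from 1459 to 13712 that covers counting error only.

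The 250 bases before the start of Cdk6 (chr5:3343643-3343892, plus strand, GRCm38.p6) held 1 CACGTG and none of the E2F sequence TTTCCCGC, the cell cycle sequence TTTGAA (CHR) and CCAAT, on either strand. It is given for comparison with the other promoters:
Cdk6: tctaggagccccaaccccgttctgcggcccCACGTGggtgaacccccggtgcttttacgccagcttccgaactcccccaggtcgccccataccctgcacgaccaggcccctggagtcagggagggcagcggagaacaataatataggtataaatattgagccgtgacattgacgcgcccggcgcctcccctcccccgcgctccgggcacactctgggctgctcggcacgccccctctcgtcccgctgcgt

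Ccne1 (ENSMUSG00000002068, chr7:37797404-37808264, minus strand) and Ccne2 (ENSMUSG00000028212, chr4:11190303-11204947, plus strand) encode the partners of Cdk2 at the entry into S phase, and both rose in the 4 tumor groups. Ccne1 had 41.9, 56.8 and 42.1 normalized counts in Lung, 605, 601 and 694 in 46LCNEC_cell, and 374, 362 and 365 in 46LCNEC_allo. 57SCLC_cell had 898, 854 and 936, and 57SCLC_allo 874, 740 and 865. The lowest tumor sample was thus above the highest Lung sample, and the SCLC samples lay above all LCNEC samples. The log2 fold changes against Lung were 3.74 ± 0.17 and 2.95 ± 0.21 in 46LCNEC_cell and 46LCNEC_allo, and 4.24 ± 0.16 and 4.12 ± 0.18 in 57SCLC_cell and 57SCLC_allo (adjusted p at most 5.93e-05). Ccne2 was counted at 29.9, 33.9 and 25.8 in Lung, 206, 234 and 252 in 46LCNEC_cell, and 95.4, 135 and 108 in 46LCNEC_allo. In the SCLC groups it was 496, 544 and 418 in 57SCLC_cell, and 383, 477 and 395 in 57SCLC_allo. It had the same order of groups as Ccne1. Its log2 fold changes were 2.91 ± 0.20, 1.88 ± 0.27, 3.98 ± 0.18 and 3.77 ± 0.20 in the same order as above (adjusted p at most 0.00106).

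Cdk2 (ENSMUSG00000025358, chr10:128533796-128540963, minus strand), the kinase of cyclins E and A, changed least of the members that rose in every tumor group. The samples of Lung had 785, 908 and 835 normalized counts, those of 46LCNEC_cell 1659, 1846 and 1859, and those of 46LCNEC_allo 1591, 2017 and 1509. In 57SCLC_cell it was 2420, 2415 and 2336, and in 57SCLC_allo 2214, 2373 and 2229. The groups of each line overlapped with each other and not with Lung. The log2 fold changes were 1.09 ± 0.09, 1.01 ± 0.14, 1.51 ± 0.08 and 1.43 ± 0.08 in 46LCNEC_cell, 46LCNEC_allo, 57SCLC_cell and 57SCLC_allo (adjusted p at most 0.000926). The value in 46LCNEC_allo was just past the 2-fold limit, and fell to 0.95 when scaled by library size, to 0.88 without tumor 319 and to 0.96 without Lung sample CT3.

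Of the 10 members, 6 matched a promoter window in the RefSeq table (Ccnb1, Ccnd3, Ccne1, Cdk2, Cdk4 and Cdk6), and Ccnd1, Ccnd2, Ccne2 and Ccna2 did not. Only the form TTTCCCGC of the sequence bound by E2F factors was searched, so absence of E2F sites is not shown for the other members. Cdk2 was the only matched member with TTTCCCGC, which was held by 0.895% of all windows. It lies 140 to 133 bases before the start on the reverse strand, and a CCAAT lies 45 to 41 bases before the start (chr10:128705052-128705301, minus strand, GRCm38.p6; both in capitals):
Cdk2: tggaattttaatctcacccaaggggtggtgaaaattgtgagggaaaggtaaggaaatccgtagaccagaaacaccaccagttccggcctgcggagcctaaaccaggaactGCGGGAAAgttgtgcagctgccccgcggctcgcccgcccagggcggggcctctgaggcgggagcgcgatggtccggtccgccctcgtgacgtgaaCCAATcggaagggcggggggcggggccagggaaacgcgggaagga

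Ccna2 (ENSMUSG00000027715, chr3:36619014-36626299, minus strand), the cyclin of S phase and early mitosis, had 83.0, 126 and 73.7 normalized counts in Lung. 46LCNEC_cell had 4474, 3865 and 4168, and 46LCNEC_allo 4187, 4454 and 2813. 57SCLC_cell had 4666, 4513 and 3596, and 57SCLC_allo 3009, 3181 and 3013. All 12 lay above Lung, and each tumor group overlapped with its neighbour in the order of levels. The log2 fold changes were 5.49 ± 0.18, 5.34 ± 0.26, 5.51 ± 0.21 and 5.05 ± 0.19 in 46LCNEC_cell, 46LCNEC_allo, 57SCLC_cell and 57SCLC_allo (adjusted p at most 1.62e-05), which is 33.1-fold to 45.7-fold.

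Ccnb1 (ENSMUSG00000041431, chr13:100915153-100923116, minus strand), the cyclin that activates Cdk1 for mitosis, rose more than any other member in 3 of the 4 tumor groups, the exception being 46LCNEC_allo, where Ccna2 rose more. Lung had 23.2, 24.9 and 15.2 normalized counts, 46LCNEC_cell 1779, 1778 and 1973, 46LCNEC_allo 739, 757 and 642, 57SCLC_cell 2957, 2983 and 2824, and 57SCLC_allo 1685, 1782 and 1625. 57SCLC_cell was above and 46LCNEC_allo below the other tumor groups without overlap. The log2 fold changes were 6.41 ± 0.19 and 5.04 ± 0.25 in cells and tumors of 46LCNEC, and 7.08 ± 0.19 and 6.29 ± 0.21 in those of 57SCLC (adjusted p at most 1.71e-05).

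The window of 250 bases before Ccnb1 (chr13:100786487-100786736, minus strand, GRCm38.p6) held CCAAT 2 times, 99 to 95 and 67 to 63 bases before the start. CCAAT is the sequence of the factor NF-Y, and 33.8% of all windows held it on 1 of the strands or both. The form TTTGAA of the CHR was absent from the windows of all 6 matched members and held by 16% of all windows. Other forms of the CHR were not searched, so its absence is not shown:
Ccnb1: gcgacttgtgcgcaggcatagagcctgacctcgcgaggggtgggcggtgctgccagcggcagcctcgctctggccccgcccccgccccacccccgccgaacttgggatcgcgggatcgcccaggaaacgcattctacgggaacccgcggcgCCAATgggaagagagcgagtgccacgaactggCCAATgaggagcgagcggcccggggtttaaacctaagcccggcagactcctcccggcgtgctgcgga

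Ccnb1 also has near-identical copies. Ccnb1-ps (chr7:41755323-41756609, minus strand), a processed pseudogene, matched it at 98.0% over 1303 bases and took between 21.9% and 40.9% of the summed counts of gene and copy. The copies Gm12856, Gm8416, Gm4870 and Gm7483 had at most 27.3 normalized counts. The middle 150 bases of the coding sequence of Ccnb1 (bases 570 to 719) did not differ between Ccnb1 and Ccnb1-ps at any base, so a read from this stretch matches both:
Ccnb1 and Ccnb1-ps: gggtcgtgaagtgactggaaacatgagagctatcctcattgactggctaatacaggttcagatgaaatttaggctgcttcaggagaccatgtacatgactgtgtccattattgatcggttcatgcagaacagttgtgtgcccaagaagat

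Genes on the opposite strand overlap other members over at least 1 read length (LTO1 for Ccnd1, 9330179D12Rik, Gm43126 and Gm68045 for Ccnd2, Bysl and Gm64596 for Ccnd3, Ints8 for Ccne2, Exosc9 for Ccna2, Gm66040 for Cdk2, Tspan31 for Cdk4 and Gm17590 for Cdk6). Gm17590 was listed at 0 in all samples and Gm43126 at no more than 1.106, and Gm68045, Gm64596 and Gm66040 were not analysed here. Whether the counting used strand was not given in the sources used here, so reads of such overlaps cannot be assigned with certainty. LTO1 was counted at 405 or more, and 9330179D12Rik at 158 or more, in every sample, including those in which Ccnd1 and Ccnd2 were lowest. Cdk6 also has partial copies elsewhere: Gm16505 matched it at 96.1% over 233 bases and had 0 to 313 normalized counts, and Gm8579 and Gm42961 matched it at 97.7% over 175 bases, with at most 98.5 and 0.

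Counted over the 10 members, 7 rose and 1 (Ccnd2) fell in 46LCNEC_cell against Lung, where 20.6% of the genes tested were called higher and 35% lower. In 46LCNEC_allo 7 rose and 1 (Ccnd2) fell, against 13.4% and 22.1% of all genes. All 10 were called in 57SCLC_cell, 6 higher and 4 lower, against 21.1% and 32.7%, and the 4 lower were Ccnd1, Ccnd2, Ccnd3 and Cdk6. These 4 were also the lower ones in 57SCLC_allo, with 6 higher, against 18.9% and 26.9%. The median log2 fold change of the members was 1.46, 1.13, 1.70 and 1.62 in these 4 comparisons, beside -0.23, -0.14, -0.12 and -0.09 over all genes tested. The 4 comparisons share the 3 Lung samples. The plot of differences from Lung shows each member in the 4 tumor groups.

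**Figure D2:**
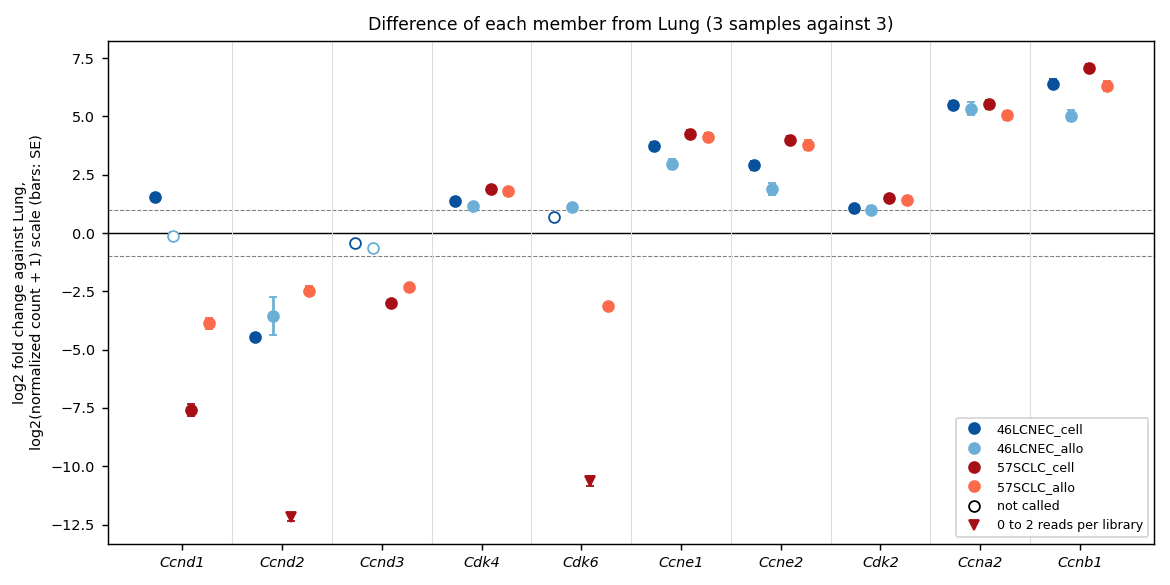
Log2 fold change against Lung (vertical axis, on the log2(normalized count + 1) scale, bars for SE, 3 samples against 3) of each member in the 4 tumor groups; open symbols were not called and dashed lines mark 2-fold. The downward triangles (Ccnd2 and Cdk6 in 57SCLC_cell) rest on 0 to 2 reads per library, so their height depends on the value of 1 added before the logarithm.

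The lines were compared in culture and as tumors. Between the cultures, 57SCLC_cell had less of all D-type cyclins and of Cdk6 than 46LCNEC_cell. Ccnd1 differed by -9.12 ± 0.24 on the log2 scale, which is 558-fold (adjusted p = 2.41e-08), and Ccnd3 by -2.56 ± 0.14, which is 5.91-fold (adjusted p = 1.18e-06). Ccnd2 was at least 125-fold lower in 57SCLC_cell, and the ratio of 46LCNEC_cell to 57SCLC_cell for Cdk6 was 6011 (exact 95% interval 2348 to 22060, counting error only). Ccne2 was the only member called higher in 57SCLC_cell, by 1.07 ± 0.14 (adjusted p = 0.000169), and it dropped below the 2-fold limit without 46LCNEC_cell sample A (0.99) or 57SCLC_cell sample B (0.98). Ccne1, Cdk4, Cdk2, Ccnb1 and Ccna2 differed by 0.02 to 0.67 and were not called. Thus 1 member was higher and 4 were lower, where 23.9% and 22.2% of all genes were.

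Between the tumors, Ccnd1 (-3.75 ± 0.29, adjusted p = 7.92e-05), Ccnd3 (-1.66 ± 0.14, adjusted p = 0.000116) and Cdk6 (-4.25 ± 0.18, adjusted p = 1.15e-05) were lower in 57SCLC_allo than in 46LCNEC_allo. Ccne1 (1.17 ± 0.12), Ccne2 (1.89 ± 0.21) and Ccnb1 (1.25 ± 0.11) were higher in 57SCLC_allo, with adjusted p between 0.000133 and 0.000377. Ccnd2 differed by 1.07 ± 0.83 (adjusted p = 0.306), and its samples overlapped. Cdk4 (0.66), Cdk2 (0.42) and Ccna2 (-0.29) were not called. The counts of 3 higher and 3 lower stand beside 16.1% and 14.2% of all genes. Scaled by library size, 64.2% of all calls in this comparison were higher in 57SCLC_allo in place of 53.1%.

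Divided by the exon length of each gene, the normalized counts can be compared roughly between genes. The lengths are from a later GENCODE release than the one used for counting. The summed level of the D-type cyclins per kb was 1677 ± 78.4 (SD, n = 3) in Lung. For 46LCNEC it was 2385 ± 276 in cells and 1025 ± 209 in tumors, and for 57SCLC 66.5 ± 14.6 in cells and 242 ± 48.3 in tumors. Ccnd1 made up 83.5% ± 2.35 of this sum in 46LCNEC_cell and 62.5% ± 3.91 in 46LCNEC_allo. In 57SCLC_cell Ccnd3 made up 94.9% ± 0.873, and in 57SCLC_allo the share was 42.6% ± 3.44 for Ccnd3, 37.4% ± 5.53 for Ccnd2 and 20.1% ± 5.54 for Ccnd1. In Lung the shares were 40.8% ± 1.60, 29.2% ± 1.02 and 29.9% ± 0.642 for Ccnd1, Ccnd2 and Ccnd3. The shares depend on the length used: with the longest transcript in place of all exons, Ccnd1 held 72.8% in 46LCNEC_cell, 47.8% in 46LCNEC_allo and 30.5% in Lung, where Ccnd3 then led with 43.2%. Counts on the copy Ccnd3-ps, with a mean of 2406 in Lung beside 4641 for Ccnd3, were left out of the shares. The share of Ccnd3 may thus be too low. In 46LCNEC_allo Ccnd3 held 47.0% with the longest transcript, beside the 47.8% of Ccnd1, and the mean on its copy was 1680. The place of Ccnd3 relative to Ccnd1 is therefore not settled in Lung or in 46LCNEC_allo.

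The sum of Cdk4 and Cdk6 per kb varied less, from 656 ± 53.2 in Lung to 1711 ± 128 in 57SCLC_cell. Cdk4 held 70.7% ± 2.70 of it in Lung, 79.6% ± 1.37 in 46LCNEC_cell, 71.1% ± 2.00 in 46LCNEC_allo and 98.6% ± 0.327 in 57SCLC_allo, and Cdk6 held 0.00303% in 57SCLC_cell. Without division by length, Cdk4 held 48.3% in 46LCNEC_cell and 36.6% in Lung. For the E-type cyclins the sum per kb was 18.3 ± 3.01 in Lung, 216 ± 17.9 and 121 ± 2.22 in cells and tumors of 46LCNEC, and 334 ± 1.98 and 302 ± 11.5 in those of 57SCLC. Ccne1 held between 70.8% and 83.5% of it in the group means.

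**Figure D3:**
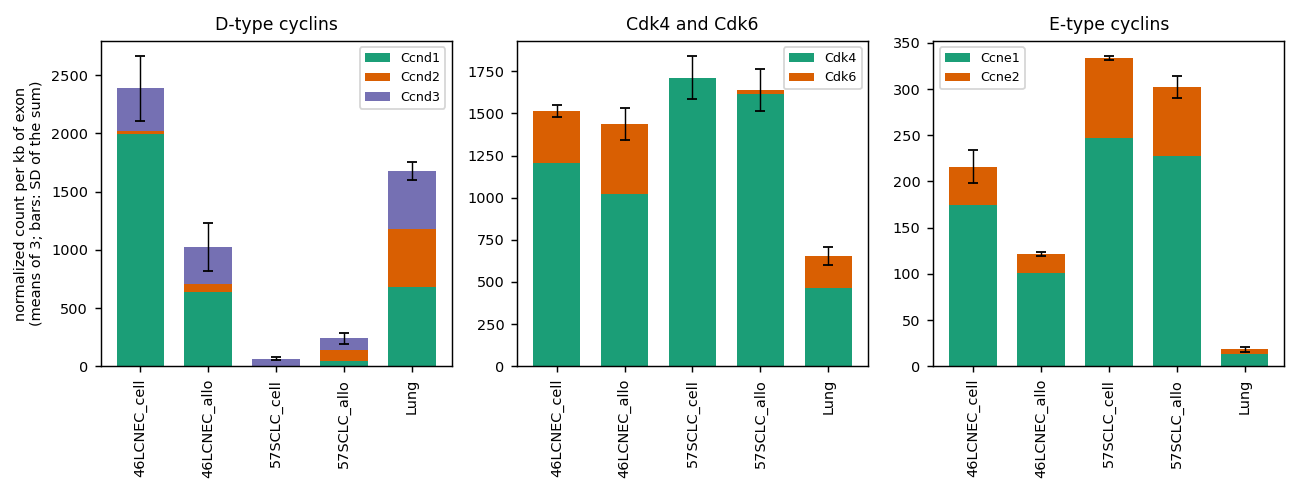
Normalized count per kb of exon (vertical axis, means of 3 stacked by gene, bars for the SD of the sum) of the D-type cyclins, of Cdk4 and Cdk6, and of the E-type cyclins in the 5 groups. The D-type cyclins sum to 66.5 in 57SCLC_cell and 2385 in 46LCNEC_cell, while Cdk4 and Cdk6 sum to 1514 in 46LCNEC_cell and 1711 in 57SCLC_cell.

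The allografts were compared with the cells they grew from. In 46LCNEC_allo, Ccnd1 fell by 1.65 ± 0.17 (adjusted p = 0.000240), Ccnb1 fell by 1.37 ± 0.11 (adjusted p = 9.95e-05) and Ccne2 fell by 1.04 ± 0.20 (adjusted p = 0.00464). The call of Ccne2 was lost without any of the 3 46LCNEC_cell samples or without tumor 312. No member was called higher in 46LCNEC_allo by limma, edgeR or DESeq2 (1, Cdk6, had an unadjusted p under 0.05), where 14.4% of all genes were called higher and 8.45% lower. Ccnd2 differed by 0.93 ± 0.78 (adjusted p = 0.348), and by 1.87 without tumor 319, which passed the test (adjusted p = 0.00931). The other 6 members differed by 0.08 to 0.78 in size.

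In 57SCLC_allo 3 members rose against 57SCLC_cell, beside 14.4% of all genes. None was called lower by limma, edgeR or DESeq2, beside 2.29% of all genes, and 2 (Ccnb1 and Ccna2) were lower at an unadjusted p under 0.05. Ccnd1 rose by 3.72 ± 0.36 (adjusted p = 7.43e-05). Ccnd2, with no read in the cells, was at least 512-fold higher in the tumors, and for Cdk6 the ratio of tumors to cells was 431 (exact 95% interval 168 to 1581, counting error only). Each of the 3 stayed below Lung. Ccnd3 differed by 0.70 ± 0.16 (adjusted p = 0.0101), Ccnb1 by -0.78 ± 0.08 and Ccna2 by -0.46 ± 0.11, and Ccne1, Ccne2, Cdk2 and Cdk4 by 0.21 or less in size.

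**Figure D4:**
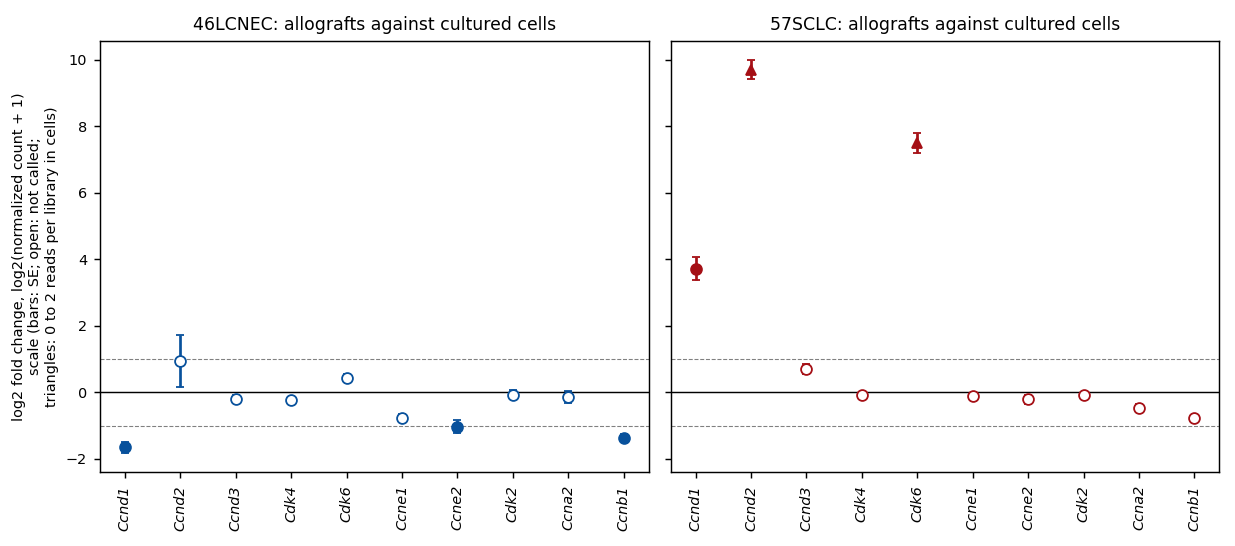
Log2 fold change of each member in allografts against the cultured cells of the same line (vertical axis, log2(normalized count + 1) scale, bars for SE, 3 samples against 3); filled symbols were called and dashed lines mark 2-fold. Ccnd1, Ccne2 and Ccnb1 lie below -1 for 46LCNEC, and Ccnd1, Ccnd2 and Cdk6 lie above 1 for 57SCLC, the last 2 as triangles because the cells had 0 to 2 reads per library.

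Summed markers of fibroblasts, leukocytes and endothelium were higher in the allografts too. The summed normalized counts of 5 fibroblast markers (Col1a1, Col1a2, Dcn, Pdgfra, Lum) were 22.4 to 27.8 in 57SCLC_cell and 30593 to 48039 in 57SCLC_allo, and all 5 rose. The 6 leukocyte markers (Ptprc, Cd68, Adgre1, Cd3e, Cd79a, Lyz2) summed to 280 to 309 in the cells and 7953 to 13178 in the tumors, with 5 rising, and the 5 endothelial markers (Pecam1, Cdh5, Kdr, Tek, Cldn5) to 63.3 to 89.1 and 2690 to 3742, with all 5 rising. Dcn, Lum, Ptprc, Adgre1, Cd3e, Cdh5, Kdr and Cldn5 had no more than 3 reads in any library of 57SCLC_cell. In Lung the same sums were 18074 to 22693, 86152 to 114412 and 97127 to 108331. Most of the leukocyte sum was Lyz2, with means of 7906 in 57SCLC_allo and 93124 in Lung. Col1a1 and Col1a2 made up most of the fibroblast sum in 57SCLC_allo. The sums are therefore no measure of the number of cells of a type. The part of host cells in the Ccnd1, Ccnd2 and Cdk6 counts of 57SCLC_allo was not tested.

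The same holds for Ccnd2 in 46LCNEC_allo. Tumors 312, 319 and 321, with 449, 107 and 1273 normalized counts of Ccnd2, had 23322, 17290 and 40960 for the leukocyte sum, most of it Lyz2. They had 666389, 399596 and 297715 for the fibroblast sum, and 9479, 5673 and 8981 for the endothelial sum. In 46LCNEC_cell the leukocyte sum was 321 to 356, with Adgre1, Cd3e and Lyz2 at no more than 3 reads in any library, and the fibroblast sum was 67855 to 78009, with Lum at no more than 3. Col1a1 and Col1a2, with means of 20963 and 50209, made up most of that fibroblast sum, so these markers were not particular to host cells for this line. The 3 tumors had the order of Ccnd2 in the leukocyte sum and another order in the fibroblast and endothelial sums, and with 3 samples this was not tested. The 5 alveolar and airway markers summed to 286483 or more in Lung and to at most 551 elsewhere. Muscle and fat markers summed to at most 195 in cells and tumors, and to between 39.8 and 1114 in Lung.

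**Figure D5:**
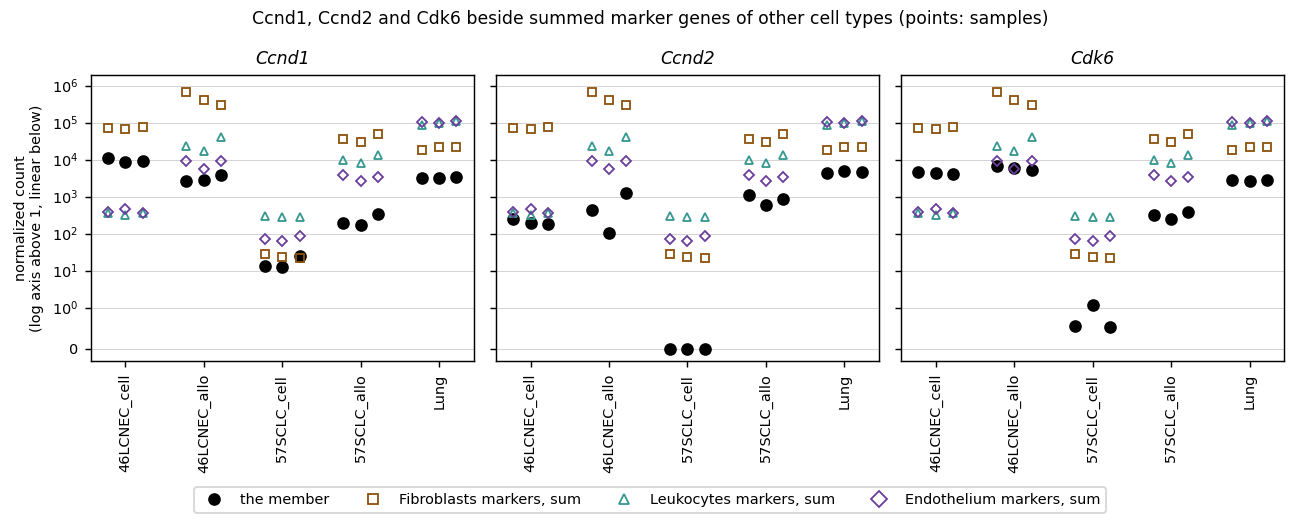
Normalized counts of Ccnd1, Ccnd2 and Cdk6 (filled points) beside the summed normalized counts of fibroblast, leukocyte and endothelial markers (open symbols) in each of the 15 samples (vertical axis, logarithmic above 1 and linear below). From 57SCLC_cell to 57SCLC_allo the members and all 3 marker sums are higher; the leukocyte sum goes from at most 309 to at least 7953.

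The difference between the lines was itself compared between tumors and cells with an interaction term over 12 samples. It was called for 3 members, all higher, beside 10.8% of all genes. No member was called lower by limma, edgeR or DESeq2 or had an unadjusted p under 0.05 in that direction, beside 6.78% of all genes called lower. For Ccnd1 the line difference was smaller in the tumors by 5.37 ± 0.41 (adjusted p = 1.47e-06). For Ccnd2 and Cdk6 the fitted values of 8.77 and 7.08 were taken against 57SCLC_cell with 0 to 2 reads per library. They are no measure of size, and the calls of Ccnd2 and Cdk6 are not taken as support for a difference. Ccnd3 (0.90 ± 0.21, adjusted p = 0.00621), Ccne2 (0.82 ± 0.24, adjusted p = 0.0190), Ccne1 (0.66 ± 0.15, adjusted p = 0.00423) and Ccnb1 (0.59 ± 0.13, adjusted p = 0.00345) were not called; Ccnd3 was called without 57SCLC_cell sample C (1.07) or tumor 316 (1.01). Cdk4, Cdk2 and Ccna2 differed by 0.31 or less in size.

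Other genes of the cycle were counted by list. All 10 proliferation genes (Mki67, Top2a, Pcna, Mcm2, Mcm5, Mcm6, Rrm2, Tyms, Bub1, Plk1) rose in each of the 4 tumor groups against Lung, with list medians of 4.60, 3.71, 4.24 and 3.84. Between 13.4% and 21.1% of all genes were called higher in these 4 comparisons. For Top2a, a DNA topoisomerase of dividing cells, the log2 fold changes were 4.98, 4.67, 5.37 and 5.07. None of the 10 was called between 57SCLC_cell and 46LCNEC_cell or between 57SCLC_allo and 46LCNEC_allo by limma, edgeR or DESeq2, and 6 had an unadjusted p under 0.05 in each of these comparisons. Of all genes, 23.9% and 16.1% were called higher and 22.2% and 14.2% lower in them. In 46LCNEC_allo against its cells Rrm2 (-1.14), Mcm2 (-1.12) and Pcna (-1.12) fell, and in 57SCLC_allo Rrm2 (-1.13) did. Of all genes, 8.45% and 2.29% were called lower in these comparisons. At an unadjusted limma p under 0.05, 8 and 9 of the 10 were lower and 0 were higher, with list medians of -0.83 and -0.40.

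Of 8 further cell-cycle cyclins and CDKs, 7 were tested against Lung. Cdk1 (6.37, 4.94, 5.76 and 5.42), the partner of cyclin B1, rose in the 4 tumor groups, and Ccnf (4.47, 4.16, 5.16 and 4.89) and Ccnb2 (4.16, 3.72, 4.51 and 4.24), the other main mitotic B-type cyclin, did too. Ccna1, mainly known from the germ line, had 17.0 to 22.2 normalized counts in Lung, 2.81 to 7.73 in 46LCNEC_cell and none in 46LCNEC_allo. Of 57SCLC, the cells had 55.6 to 117 and the tumors 109 to 220. Cdk14 fell in 57SCLC_cell (-2.79 ± 0.16) and 57SCLC_allo (-3.76 ± 0.15). Of 14 cyclins and CDKs of transcription, 2, 2, 0 and 0 were called in 46LCNEC_cell (Mnat1 1.45, Cdk19 -1.44), 46LCNEC_allo (Cdk8 1.14, Mnat1 1.07), 57SCLC_cell and 57SCLC_allo, with list medians of 0.32, 0.09, 0.02 and -0.04. In the SCLC groups edgeR and DESeq2 called none of the 14 either, and 5 had an unadjusted p under 0.05 in each. Of all genes, 13.4% to 21.1% were called higher and 22.1% to 35% lower in these 4 comparisons. Cdk8 had group means from 33298 to 75240 normalized counts, far above Cdk9 (2581 in Lung), and ranged from 22564 to 53297 within 57SCLC_cell. Whether all these reads come from Cdk8 mRNA was not tested.

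Among 20 regulators of CDK activity 18 were tested, and 13, 13, 16 and 15 rose in 46LCNEC_cell, 46LCNEC_allo, 57SCLC_cell and 57SCLC_allo in the limma fits. In the same order, 1, 0, 1 and 1 were called lower. Of all genes, 20.6%, 13.4%, 21.1% and 18.9% were called higher and 35%, 22.1%, 32.7% and 26.9% lower. Wee1 and Fbxw7 were listed at 0 in all 15 samples. Such values are not taken as absence of the RNA, and their cause was not tested. Cdc25c, a phosphatase that activates Cdk1, rose by 6.13, 4.86, 6.31 and 5.92. Cdkn2a, whose products include the Cdk4 and Cdk6 inhibitor p16, rose by 6.01 ± 0.09, 5.44 ± 0.26, 3.99 ± 0.09 and 4.09 ± 0.09. Cdkn2b, another inhibitor of Cdk4 and Cdk6, fell in 57SCLC_cell (-2.67 ± 0.13) and 57SCLC_allo (-2.14 ± 0.18), and Cdkn1c, a Cdk2 inhibitor, fell in 46LCNEC_cell (-4.49 ± 0.16) and rose in 57SCLC_cell (1.10 ± 0.14). In 46LCNEC_allo (-1.49 ± 0.61) and 57SCLC_allo (0.28 ± 0.14) Cdkn1c was not called. Of the genes of pocket proteins, which the CDKs phosphorylate, Rbl1 rose in 57SCLC_cell (1.79 ± 0.10) and 57SCLC_allo (1.65 ± 0.10), and Rb1 (-1.76 ± 0.20) and Rbl2 (-1.43 ± 0.18) fell in 46LCNEC_cell. The lines come from mice with null Rbl1 and floxed Rb1, and the study reports recombination or deletion at both loci in them. The counts are of RNA over whole genes and are no measure of protein.

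The genes whose log2 values followed each member most closely over the 15 samples were found among 19616 genes by Pearson's r, as a description. For Ccna2 they were Gtse1 (0.998), Fam83d (0.997) and Fignl1 (0.997), for Ccnb1 Polq (0.998), Ska1 (0.996) and Rfc4 (0.996), for Ccne1 Ska1 (0.994), Rad54b (0.994) and Bora (0.994), and for Ccne2 Nmral1 (0.993), Wdr90 (0.993) and Hirip3 (0.992). Cdk4 lay closest to Cks2 (0.995), Ankle1 (0.993) and Nmral1 (0.990), and Cdk2 to Neil3 (0.992), Nusap1 (0.990) and Chek1 (0.989). The nearest genes of Ccnd1 were Samd4 (0.994), Anxa5 (0.990) and Tgfb2 (0.990), of Ccnd2 Itga1 (0.992), S1pr3 (0.987) and Svep1 (0.985), of Ccnd3 Tcea3 (0.992), Mocs2 (0.990) and Ablim1 (0.990), and of Cdk6 Tmem98 (0.997), Alpk1 (0.997) and Slc2a10 (0.995). Among the members themselves r was 0.957 for Ccnd1 and Cdk6, 0.992 for Ccne1 and Ccnb1, and -0.836 for Ccnd3 and Ccne2. The 15 points come from 5 groups and share libraries between genes, so these values mainly order the group levels.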

How the data were processed

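Poly-A RNA of the 15 samples was read as paired ends of 150 bases. Per the labels and the study's methods, the authors used Rbowtie2 and the GRCm39 genome for alignment. Genes of GENCODE release 27 were then counted by featureCounts, and size factors of DESeq2 were divided out. The deposited values are therefore a signal, not raw counts, and 100% of the non-zero values checked were whole multiples of 1 step per sample (tolerance 0.02), from which reads were recovered. Strand setting and handling of reads with several alignments were not given in the sources used here. No column was left out. A further targeted gene is not reported here.

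limma 3.58.1 in R 4.3.3 was fitted with a mean-variance trend to log2(normalized count + 1) of the 6 samples compared (12 for the interaction), over genes reaching 10 normalized counts in 3 or more samples. A gene was called where its p, adjusted by Benjamini-Hochberg over all genes tested, was no higher than 0.01 and its fold change at least 2, the study's limits. edgeR 4.0.16 and DESeq2 1.42.0 on the recovered reads, other scalings, pseudocounts, filters and thresholds, and leaving out each sample were alternatives. In simulated data with 200 genes changed 4-fold, limma recovered 100% with 0 other calls among 18009 genes (46LCNEC_allo against Lung) and 100% with 3 other calls among 16085 (interaction). The simulation gave every gene the same fixed dispersion, not that of the real replicates, and changed only well-counted genes. It checks the running of the code and does not measure how often calls in the real samples are wrong.

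Exon lengths and coordinates came from GENCODE release 39 (GRCm39), and promoters from RefSeq (GRCm38.p6). The 10 members, the further lists and the tests were chosen with earlier results of these data known, and the motifs after the promoters had been read. The genes named are the members, the 3 genes most like each, and at most 4 called genes of each list per comparison with the largest fold change. Cdkn2a, Cdkn2b and Cdkn1c, named by this rule between 57SCLC_cell and 46LCNEC_cell, are also given against Lung. Intervals and floors of 3 reads cover counting error only. Python 3.11.15 with numpy 2.4.6, pandas 2.3.3, scipy 1.17.1 and matplotlib 3.10.9 was used.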

Additional observations from a re-analysis of the deposited data

Results flagged for a closer look

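The difference between the lines was not the same in tumors and in cells for 3 members. The interaction term, (57SCLC_allo minus 46LCNEC_allo) minus (57SCLC_cell minus 46LCNEC_cell) on the log2(normalized count + 1) scale, was 8.769 for Ccnd2, 7.076 for Cdk6 and 5.37 for Ccnd1, with limma adjusted p of 2.08e-05, 7.59e-09 and 1.47e-06. The values of Ccnd2 and Cdk6 were taken against 0 to 2 reads per library of 57SCLC_cell and depend on the pseudocount. The adjusted p of Ccnd2 and Cdk6 rest on the same group at the floor and are not taken as support for a difference. Markers of fibroblasts, leukocytes and endothelium were higher in the allografts of both lines than in the cells, and their part in these differences was not tested.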

How the results depend on the processing

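The number of members called stayed within 1.5 times of the reported one under every alternative except the limma test against a fold change of 2, which left 3 members in 46LCNEC_allo against Lung, 3 in 57SCLC_allo against 46LCNEC_allo and 0 in 46LCNEC_allo against 46LCNEC_cell (3 at an adjusted p of at most 0.01 without that test). Of the log2 fold changes recomputed per member, 1644 kept their direction and call, 28 lost the call, 3 gained it and 15 changed sign, all of these uncalled. Ccna2 in 57SCLC_cell against 46LCNEC_cell was -0.001808 with upper quartile scaling and -0.04701 to 0.1408 without 1 sample. Cdk2 in the interaction was -0.01821 with TMM, -0.0004781 with upper quartile scaling, -0.03741 with DESeq2 and -0.07811 to 0.131 without 1 sample. In 46LCNEC_allo against 46LCNEC_cell, leaving out 1 sample gave -0.2781 to 0.05327 for Ccna2 and -0.2047 to 0.004369 for Cdk2. The cause was not tested.

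With the letters A, B and C as a replicate block, 5 members were called in 57SCLC_cell against 46LCNEC_cell, as without it. Deviations of same-lettered samples correlated at 0.0916, -0.0837 and -0.0062, so the letters were not taken as pairs. Over all genes, the test against a fold change of 2 left fewer calls by construction: against Lung 2480 of 3745 higher in 46LCNEC_cell, 1126 of 2425 higher and 2325 of 3987 lower in 46LCNEC_allo, 2563 of 3901 higher in 57SCLC_cell and 2305 of 3508 higher in 57SCLC_allo. It left 1677 of 2821 higher and 1184 of 2491 lower in 57SCLC_allo against 46LCNEC_allo, 1099 of 2355 and 315 of 1383 in 46LCNEC_allo against its cells, 1618 of 2451 and 82 of 391 in 57SCLC_allo against its cells, and 895 of 1983 and 398 of 1250 in the interaction. The 1383 genes lower in 46LCNEC_allo against its cells were 844 without 46LCNEC_cell sample B and 769 without sample C. Scaling by library size moved the median log2 fold change of all genes by at most 0.26 (57SCLC_allo against 46LCNEC_allo). By Spearman's rho in place of Pearson's r, 0 of the 3 genes most like a member were kept for 9 members and 1 for Cdk4. Depth limits Cdk6 and Ccnd2 in 57SCLC_cell, where 4 and 0 reads were counted in all.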
